A study of Mus musculus with 6 samples.

Results

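The genes described here serve protein folding in the endoplasmic reticulum, sense unfolded protein, or are switched on by the stress transcription factor ATF4. There are 35 of them, out of 18478 genes in the deposited count table, and all 35 were found in it by their gene symbol and were abundant enough to be tested. They form 3 groups: 15 chaperones and partners of the folding and disposal machinery, 9 stress sensors with the transcription factors and feedback genes below them, and 11 ATF4 targets that import or make amino acids. RNA was sequenced from group 2 innate lymphoid cells (ILC2s), lymphocytes that make type 2 cytokines, sorted from the lungs of CB2 KO mice (3 libraries) and WT mice (3 libraries). CB2, the product of Cnr2, is a cannabinoid receptor of immune cells. All mice were BALB/c, were 6 weeks old and had been given 3 intranasal doses of 1 µg of recombinant mouse IL-33, the alarmin that expands ILC2s. Cells of both genotypes were then held for 24 h in IL-2 and IL-7, each at 10 ng/mL, and 10 ng of RNA went into each library. The labels do not describe the CB2 KO allele or the sort gate, and no untreated mice are in the comparison. Whether replicates are separate mice is not stated either, so a p-value speaks only of the spread among these libraries, which may be technical.

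An ILC2 that secretes cytokine has to fold that protein in the endoplasmic reticulum (ER). Chaperones such as BiP (Hspa5) and GRP94 (Hsp90b1) hold new chains, calnexin and calreticulin bind their sugars, and the protein disulfide isomerases join their cysteines. When unfolded protein builds up, IRE1 (Ern1), ATF6 and PERK (Eif2ak3) are activated: IRE1 splices the Xbp1 transcript, ATF6 is cut free as a transcription factor, and PERK slows translation while favouring that of Atf4. ATF6 and XBP1 switch on chaperone genes through the ER stress element in their promoters. ATF4 switches on amino acid transporters and enzymes through the C/EBP-ATF response element, and does so also when amino acids are scarce.

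The promoter stretches below show those elements in those of the genes measured here in which a search found them. They come from RefSeq (build GRCm38.p6) and run 5′ to 3′ on the strand of the gene, and the capitals mark the motif. The first set holds the ER stress element, searched on both strands as CCAAT and CCACG with 9 bases between them, so that a match on the other strand reads CGTGG and then ATTGG. Its windows lie at chr2:34772005-34772063 (Hspa5), chr10:86705618-86705676 and chr10:86705513-86705571 (Hsp90b1), chr8:84847055-84847113 (Calr), chr11:50325780-50325838 (Canx), chr12:17266471-17266529 (Pdia6) and chr15:88819500-88819558 (Creld2). The gene lies on the plus strand for Hspa5, Pdia6 and Creld2 and on the minus strand for the others.
Hspa5: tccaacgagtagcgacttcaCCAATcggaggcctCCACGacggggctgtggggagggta
Hsp90b1, upstream match: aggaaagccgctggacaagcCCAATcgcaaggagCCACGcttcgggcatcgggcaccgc
Hsp90b1, downstream match: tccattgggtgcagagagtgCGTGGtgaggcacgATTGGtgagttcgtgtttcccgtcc
Calr: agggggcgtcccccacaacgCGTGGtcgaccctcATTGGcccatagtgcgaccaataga
Canx: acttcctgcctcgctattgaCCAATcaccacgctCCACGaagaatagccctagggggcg
Pdia6: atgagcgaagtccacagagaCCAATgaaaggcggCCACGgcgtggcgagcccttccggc
Creld2: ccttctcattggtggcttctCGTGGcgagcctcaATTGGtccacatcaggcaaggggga

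The second set holds the C/EBP-ATF response element, searched on both strands as TGATGNAAN. Its windows lie at chr6:7693214-7693242 (Asns, minus strand), chr3:50443661-50443689 and chr3:50443643-50443671 (Slc7a11, minus strand), chr2:119351038-119351066 (Chac1, plus strand), chr2:152344029-152344057 (Trib3, minus strand) and chr8:94386306-94386334 (Herpud1, plus strand).
Asns: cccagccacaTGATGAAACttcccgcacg
Slc7a11, upstream match: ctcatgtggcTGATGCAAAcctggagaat
Slc7a11, downstream match: acctggagaaTTTGCATCAtcatgcagcc
Chac1: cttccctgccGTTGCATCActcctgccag
Trib3: ttagctcaggTTTACATCAgccgggcggg
Herpud1: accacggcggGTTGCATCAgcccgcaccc

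RefSeq promoters, which reach from 250 bases before the RefSeq start of a gene to 50 after it, were matched by symbol for 30 of the 35 genes (all but Manf, Slc1a5, Atf6, Hyou1 and Slc7a5). The ER stress element was present in 6 of 13 chaperone promoters (46.2%), in 0 of 8 promoters of the stress sensor group and in 0 of 9 promoters of the amino acid group. Over all 32851 promoters, 39 held it (0.119%). The C/EBP-ATF response element was present in 5 of the 30 promoters (16.7%), against 1299 of all 32851 (3.95%). Those 5 were Asns and Slc7a11 of the amino acid group, Chac1 and Trib3 of the stress group, and Herpud1, the one chaperone-group gene with a match. The core of the unfolded protein response element, TGACGTGG, was in 0 of the 30 promoters and in 222 of all 32851 (0.676%). No 2 of these matches overlapped. The 2 matches of Hsp90b1 lay 212 and 107 bases upstream of the RefSeq start, and that of Hspa5 65 bases upstream, all counted to the first base of the match. A match is only a run of letters, and these data hold no measurement of binding.

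**Figure D1:**
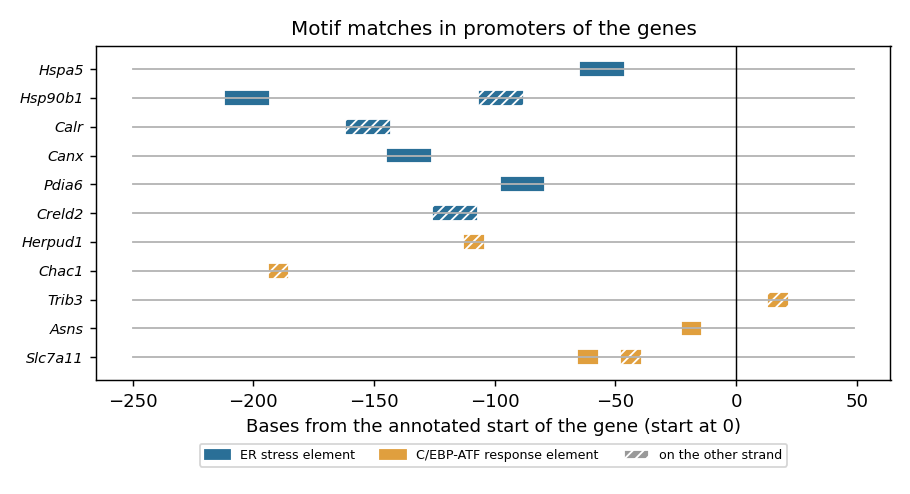
Motif matches in the promoters of the genes that have one, against distance in bases from the RefSeq start of the gene (0); hatched boxes are matches on the other strand. The ER stress element appears in 6 chaperone genes only among the 30 genes searched, and the C/EBP-ATF response element in Asns, Slc7a11, Chac1, Trib3 and Herpud1.

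Before the genes are compared, a few facts of the libraries bear on every value. Totals ran from 17141698 to 21103769 estimated counts in CB2 KO and from 17850840 to 21621008 in WT libraries, and values are given as CPM, counts scaled to the TMM-adjusted library size. Cnr2 itself measured 9.24, 1.6 and 3.84 CPM in the libraries labelled CB2 KO, against 9.32, 17.4 and 15.8 CPM in WT. Its log2 fold change was -1.52 (SE 0.56), with an adjusted p of 0.514 by edgeR's quasi-likelihood test after Benjamini-Hochberg adjustment. The library labelled CB2 KO replicate 1 was thus level with the lowest WT library, and without it the Cnr2 value was -2.42 (SE 0.59). It was also set apart from the other 5 by the first principal component (37.6% of the variance), with the fewest genes detected (15005, against 15640 to 16514 in the other libraries). WT replicate 1 was set apart by the second component, at 106.83 against -57.66 to -2.5 in the other libraries. ILC2 markers summed to 13064 to 15521 CPM in CB2 KO and 12708 to 14049 CPM in WT libraries, and all 12 were listed. Of 12 B and plasma cell markers 9 were listed, at a summed 31.6 to 42.1 CPM in CB2 KO and 22.4 to 76.1 CPM in WT. Jchain and Mzb1 were each at 0 in 5 of 6 libraries. Other genes of that list were detected: Ighm at 10.5 to 19.3 CPM in CB2 KO and 9.61 to 37.2 CPM in WT, and Cd79b at 12.8 to 14.9 CPM in CB2 KO and 10.2 to 16.2 CPM in WT. Igkc ran from 1.28 to 3.35 CPM in CB2 KO and reached 20.3 CPM in WT replicate 1. Macrophage markers (6 of 8 listed) summed to 150.2 to 169.8 CPM in CB2 KO and 12.1 to 59.2 CPM in WT, and mast cell and basophil markers (9 of 10 listed) to 61.0 to 117.2 CPM in CB2 KO and 25.9 to 49.4 CPM in WT. The sums of these last 2 sets did not overlap between genotypes, and their part in the values below was not tested. Of the mast cell and basophil genes, Tpsb2 did not overlap, at 15.7 to 32.3 CPM in CB2 KO and 1.46 to 3.31 CPM in WT. Mcpt8 and Fcer1a did not overlap either, at lower levels. Cpa3 overlapped, at 14.3 to 27.7 CPM in CB2 KO and 10.8 to 20.5 CPM in WT, and so did Cma1, Tpsab1, Hdc and Mcpt4. In CB2 KO most of the macrophage sum was Chil3, at 107.6 to 142.8 CPM, against 0.559 to 47.5 CPM in WT. Lyz2 did not overlap either, at 10.4 to 21.2 CPM in CB2 KO and at most 2.55 CPM in WT. Cd68 overlapped, at 6.57 to 12.7 CPM in CB2 KO and 6.58 to 10.4 CPM in WT, and so did Csf1r. Mrc1 and Siglecf were each at 0 in 5 of 6 libraries. T cell markers (7 of 9 listed) summed to 198.7 to 221.4 CPM in CB2 KO and 188.6 to 199.9 CPM in WT. Those sums overlapped, but Cd3g was at 23.9 to 28.9 CPM in CB2 KO and 9.6 to 17.2 CPM in WT. Trbc1 was at 50.8 to 76.5 CPM in CB2 KO and 43.9 to 45.2 CPM in WT. The remaining listed T cell genes overlapped. Epithelial and stromal markers (6 of 9 listed) summed to 51.6 to 63.5 CPM in CB2 KO and 50.7 to 158.9 CPM in WT.

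None of the 35 genes passed an adjusted p of 0.05 by edgeR's quasi-likelihood test after Benjamini-Hochberg adjustment over the 14084 genes tested. Of all genes tested, 15 passed (0.107%), 6 of them higher in CB2 KO (0.0426%) and 9 lower (0.0639%), so a count of 0 among 35 lies near the background. When the library labelled CB2 KO replicate 1 was dropped, the count was again 0 of 35, beside 8 of 14948 genes (0.0535%). At an unadjusted p under 0.05 there were 2 genes, Trib3 and Hsp90b1 (5.71% of 35), against 1211 of all genes (8.6%). DESeq2 called 0 of the 35 genes at an adjusted p of 0.05, beside 363 of the 14046 genes it gave an adjusted p (2.58%). limma-voom also called 0 of the 35, beside 16 of 14084 genes. At an unadjusted p under 0.05 DESeq2 had 5 of the 35, beside 1678 of 14084 genes (11.9%), and limma-voom 3, beside 1181 of 14084 (8.39%). The smallest adjusted p among the 35 was 0.469 by edgeR's quasi-likelihood test after Benjamini-Hochberg adjustment and 0.0805 in DESeq2, both for Trib3. In bulk RNA of this kind, fewer cells of a type and less RNA per cell cannot be told apart.

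The 3 CB2 KO libraries lay wholly outside the range of the 3 WT libraries in 6 of the 35 genes (17.1%), against 14.1% of all genes tested. Trib3 and Slc7a1 were above WT in this sense (6.88% of all genes were), and Hsp90b1, Pdia3, Herpud1 and Xbp1 were below (7.18% of all genes were). The log2 fold change, CB2 KO minus WT throughout, was positive for 19 of the 35 and negative for 16, with a median of 0.02 beside -0.00 for all genes. It was under 0.25 in size in 28 of 35 genes (80%), against 6983 of 14084 (49.6%). Many of these genes are abundant, and abundant genes differed less in these libraries: among genes with a mean of at least 100 CPM, the same held for 25 of 25 members of the pathway and for 1959 of 2431 genes (80.6%).

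**Figure D2:**
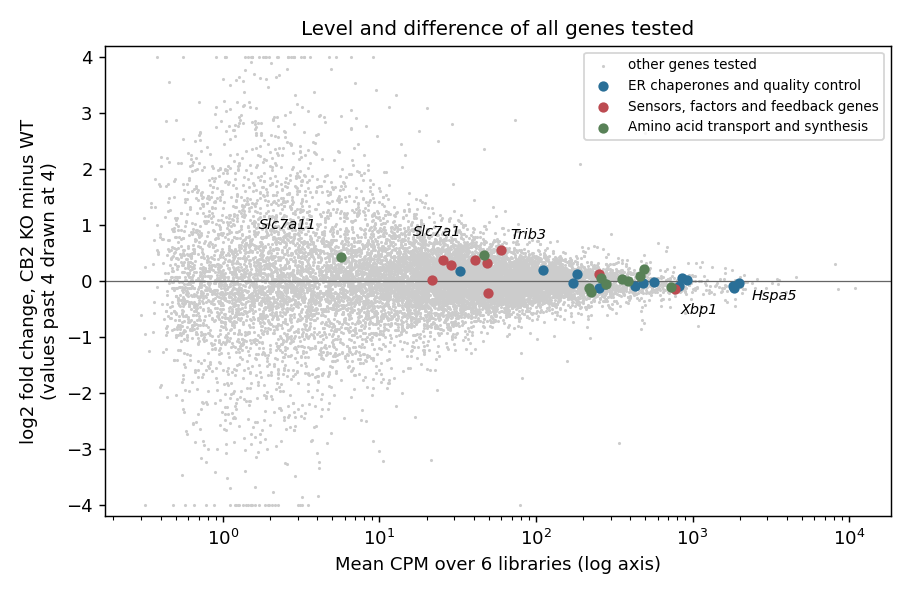
Log2 fold change (CB2 KO minus WT) against the mean CPM over 6 libraries on a log axis; each grey point is a gene tested and the coloured points are the 35 genes by group. The 25 genes with at least 100 CPM all lie within 0.25 of 0, and the wider values belong to genes of lower level.

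How large a difference these libraries could still hide is given by the 95% intervals of the fold changes. The interval stayed within 1.5-fold in either direction for 24 of the 35 genes and within 1.25-fold for 18. By group, it stayed within 1.5-fold for 13 of 15 chaperone genes, 2 of 9 stress sensor genes and 9 of 11 amino acid genes. All but Hyou1 and Dnajb9 of the chaperone group were therefore measured tightly, and all but Xbp1 and Atf4 of the stress group were not. The interval included 0 for 33 genes, the exceptions being Trib3 and Hsp90b1, and these intervals are not adjusted for the number of genes.

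**Figure D3:**
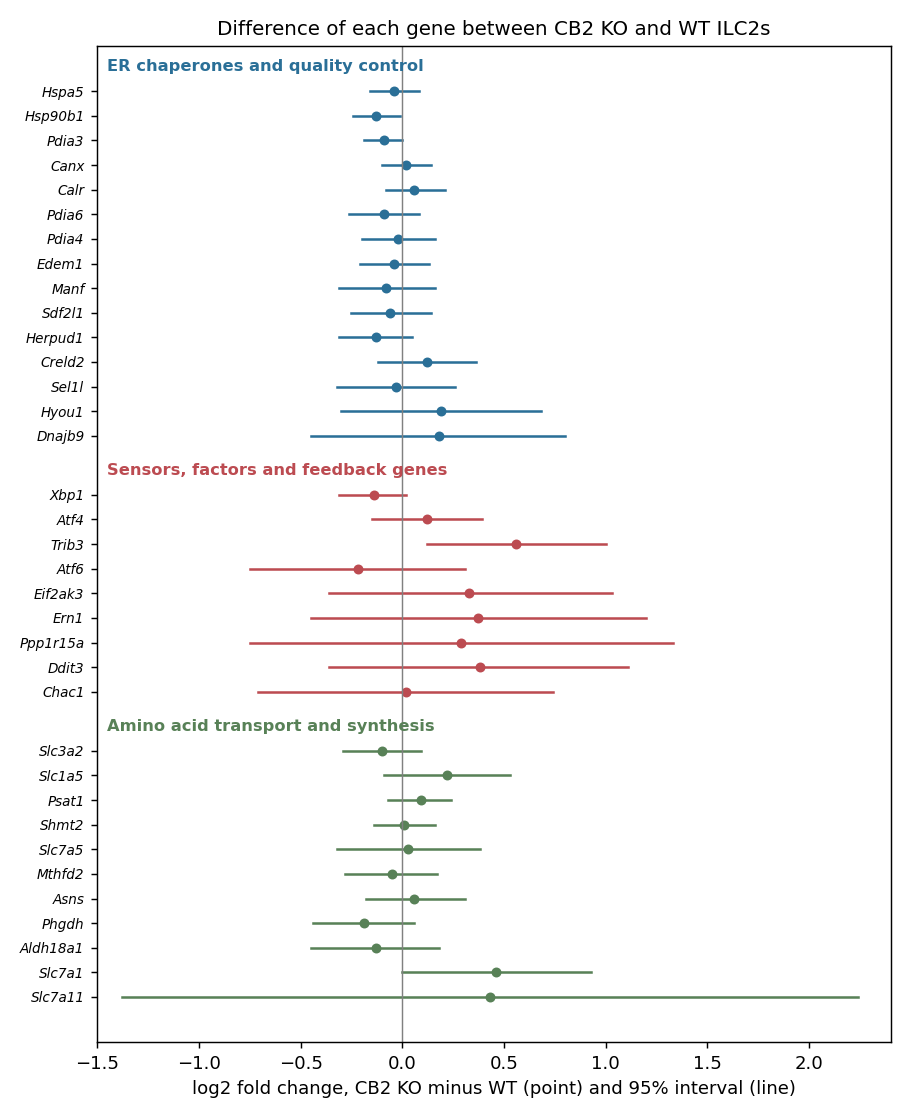
Log2 fold change (CB2 KO minus WT, point) with its 95% interval (line) for each of the 35 genes, by group. The intervals are short for 13 of the 15 chaperone genes, such as Hspa5 (-0.16 to 0.08), and longer for the chaperone genes Hyou1 (-0.30 to 0.68) and Dnajb9 (-0.45 to 0.80), for sensors such as Ern1 (-0.45 to 1.2) and for Slc7a11 (-1.38 to 2.24).

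The leading ER chaperones were among the most abundant messages of these cells in both genotypes, and no gene of the group passed the test. Log2 fold changes were positive in 5 of the 15 genes and negative in 10. Their median was -0.04 and their range -0.13 to 0.19. Taken as a sum over the 15 genes, the group measured 10447, 10586 and 10624 CPM in CB2 KO replicates 1 to 3, against 10903, 10809 and 11084 CPM in WT replicates 1 to 3. Each CB2 KO sum was thus below each WT sum on TMM-scaled library sizes. The TMM factors were 1.0052 to 1.0142 in CB2 KO and 0.9897 to 0.9942 in WT, so the scaling itself lowered CB2 KO values relative to WT values. Of the unscaled counts, the group made up 1.06% to 1.07% in CB2 KO and 1.07% to 1.1% in WT libraries. The 1.07% seen in both genotypes is a rounded value. Before rounding, each unscaled CB2 KO share was still below each WT share, by a narrow margin. The largest 3 members, Hspa5, Hsp90b1 and Pdia3, carried more of the chaperone sum than any others.

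Hspa5, the gene of BiP at chromosome 2, 34771970 to 34777547 on the plus strand, is the major ER chaperone of the Hsp70 family and binds the sensors at rest. It measured 1912, 1988 and 1973 CPM in CB2 KO replicates 1 to 3, against 2140.1, 1972 and 1925 CPM in WT replicates 1 to 3. The groups overlapped, and the log2 fold change was -0.04 (SE 0.05), with a 95% interval of -0.16 to 0.08. Hsp90b1, the gene of GRP94 at chromosome 10, 86690209 to 86705509 on the minus strand, is the ER member of the Hsp90 family and folds integrins and Toll-like receptors. It measured 1790.5, 1835 and 1666 CPM in CB2 KO replicates 1 to 3, against 1879.6, 1921 and 1976 CPM in WT replicates 1 to 3. All 3 CB2 KO libraries were below all 3 WT libraries, by a small margin that was narrowest between CB2 KO replicate 2 and WT replicate 1. The log2 fold change was -0.13 (SE 0.05), and the adjusted p was 0.549 by edgeR's quasi-likelihood test after Benjamini-Hochberg adjustment. An unprocessed pseudogene on the opposite strand, 1810014B01Rik, shares 415 bases with its exons (10.3% of them), and the sources used here do not say whether counting used strand. Manf and Eif2ak3 likewise share 146 and 485 exon bases with Dcaf1 and Gm43292 on the opposite strand.

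The lectin chaperones hold glycoproteins in the folding cycle. Calr, the gene of soluble calreticulin, measured 862, 841 and 921 CPM in CB2 KO replicates 1 to 3, against 796, 834 and 879 CPM in WT replicates 1 to 3. CB2 KO and WT values were interleaved, and the log2 fold change was 0.06 (SE 0.06). Canx, which encodes the membrane-bound calnexin, averaged 927 ± 8.61 CPM in CB2 KO and 913 ± 42.2 CPM in WT libraries (SD, n = 3 each). The spread of Canx over all 6 libraries, highest over lowest, was 1.1-fold.

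Among the disulfide isomerases, Pdia3 (ERp57), the partner of both lectins, measured 1721, 1762 and 1749.5 CPM in CB2 KO replicates 1 to 3, against 1851, 1804 and 1934 CPM in WT replicates 1 to 3. The CB2 KO libraries again lay below the WT libraries, with a log2 fold change of -0.09 (SE 0.04) and an adjusted p of 0.595 by edgeR's quasi-likelihood test after Benjamini-Hochberg adjustment. Pdia6 (P5), an isomerase that also binds BiP clients, measured 726, 823 and 846 CPM in CB2 KO replicates 1 to 3, against 800.1, 873 and 876 CPM in WT replicates 1 to 3. Its groups overlapped, with a log2 fold change of -0.09 (SE 0.07). Pdia4 (ERp72) averaged 567 ± 50 CPM in CB2 KO and 576 ± 14.9 CPM in WT libraries (SD, n = 3 each), a log2 fold change of -0.02 (SE 0.08).

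Of the co-chaperones, Hyou1 and Dnajb9 were the lowest of the group per length and were measured less tightly. Hyou1, a large Hsp70 relative that exchanges nucleotide on BiP, averaged 118 ± 15.1 CPM in CB2 KO and 104 ± 27.9 CPM in WT libraries (SD, n = 3 each). Its log2 fold change of 0.19 (SE 0.21) had an interval of -0.30 to 0.68, past 1.5-fold, and was 0.00 without WT replicate 2 and 0.38 without WT replicate 3. Dnajb9 (ERdj4), a J protein that brings BiP to IRE1, averaged 34.2 ± 9.92 CPM in CB2 KO and 30.7 ± 4.53 CPM in WT libraries (SD, n = 3 each), with a log2 fold change of 0.18 (SE 0.27) that turned to -0.09 when the library labelled CB2 KO replicate 1 was left out. Sdf2l1, which works with ER J proteins, averaged 272 ± 18.8 CPM in CB2 KO and 282 ± 10.3 CPM in WT libraries (SD, n = 3 each). The 2 genes of secreted stress proteins overlapped between genotypes. Creld2 averaged 190.3 ± 20.1 CPM in CB2 KO and 175 ± 3.15 CPM in WT libraries, and Manf, a BiP-binding factor, 416 ± 50.4 CPM in CB2 KO and 438 ± 19.6 CPM in WT libraries (SD, n = 3 each).

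The disposal arm returns misfolded chains to the cytosol for degradation. Herpud1, a membrane scaffold of the disposal complex, measured 236, 254 and 239.5 CPM in CB2 KO replicates 1 to 3, against 262, 276 and 260.2 CPM in WT replicates 1 to 3. CB2 KO libraries were all below WT libraries, with a log2 fold change of -0.13 (SE 0.08) and an adjusted p of 0.688 by edgeR's quasi-likelihood test after Benjamini-Hochberg adjustment. Edem1, which marks glycoproteins for disposal, averaged 476 ± 23.3 CPM in CB2 KO and 488 ± 29.3 CPM in WT libraries (SD, n = 3 each), and its groups overlapped. Sel1l, the partner of the ubiquitin ligase Hrd1, averaged 169.6 ± 18.8 CPM in CB2 KO and 173 ± 17.2 CPM in WT libraries (SD, n = 3 each), and here too the groups overlapped.

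**Figure D4:**
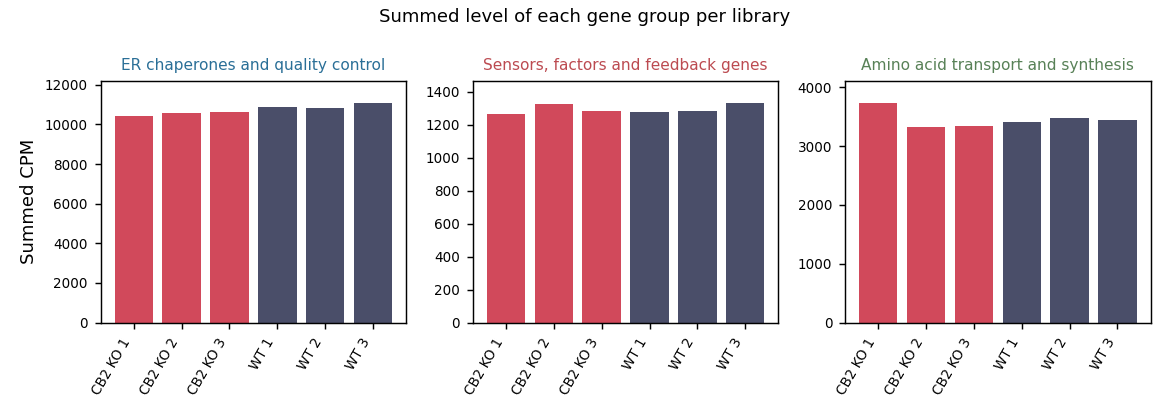
Summed CPM of each group of genes in each library, as bars from 0, CB2 KO replicates left of WT replicates. On TMM-scaled library sizes the chaperone sums of CB2 KO (10447 to 10624 CPM) lie just under those of WT (10809 to 11084 CPM). As shares of the unscaled counts, the highest CB2 KO and the lowest WT chaperone value both round to 1.07%, with CB2 KO the lower before rounding. The other 2 groups interleave between genotypes.

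The stress sensor group, apart from Xbp1 and Atf4, was measured with wide errors. Of its 9 genes, 7 had a positive and 2 a negative log2 fold change, and none passed the test. The median was 0.29, beside -0.00 for all genes, but it stood at 0.15 without CB2 KO replicate 2, 0.15 without WT replicate 2, 0.14 without WT replicate 3 and 0.16 in limma-voom. The sum over the 9 genes was 1263, 1324 and 1286 CPM in CB2 KO replicates 1 to 3, against 1277, 1281 and 1332 CPM in WT replicates 1 to 3, which overlap.

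Per length the 3 sensors were the lowest of the group. Ern1, the gene of IRE1, measured 26.3, 64.7 and 46.7 CPM in CB2 KO replicates 1 to 3, against 35.0, 28.6 and 44.2 CPM in WT replicates 1 to 3. CB2 KO replicate 1 was the lowest of the 6 libraries and CB2 KO replicate 2 the highest, and the log2 fold change of 0.37 (SE 0.35) lay within that spread. Eif2ak3, the gene of PERK, measured 54.8, 46.0 and 60.8 CPM in CB2 KO replicates 1 to 3, against 24.8, 50.7 and 53.9 CPM in WT replicates 1 to 3. One library, WT replicate 1, was far below the rest, and without it the log2 fold change of 0.33 (SE 0.30) became 0.03. Atf6 measured 38.4, 58.1 and 39.8 CPM in CB2 KO replicates 1 to 3, against 56.7, 58.0 and 43.9 CPM in WT replicates 1 to 3. These values interleave, with a log2 fold change of -0.22 (SE 0.23) and an interval of -0.75 to 0.31. Leaving out 1 library at a time gave log2 fold changes of 0.01 to 0.67 for Ern1, 0.03 to 0.51 for Eif2ak3 and -0.45 to -0.10 for Atf6.

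Per length the transcription factors below the sensors were more abundant than the sensors. Xbp1, the target of IRE1 splicing at chromosome 11, 5520659 to 5525893 on the plus strand, measured 679.8, 759 and 749.7 CPM in CB2 KO replicates 1 to 3, against 773, 785 and 863 CPM in WT replicates 1 to 3. Each CB2 KO library was below each WT library, with a log2 fold change of -0.14 (SE 0.07) and an adjusted p of 0.621 by edgeR's quasi-likelihood test after Benjamini-Hochberg adjustment. These values add the spliced and unspliced forms of Xbp1, because the table counts genes, so they do not measure IRE1 activity. Atf4, whose protein is controlled mainly through translation, measured 305, 252 and 229 CPM in CB2 KO replicates 1 to 3, against 238, 252 and 233 CPM in WT replicates 1 to 3. CB2 KO replicate 1 stood highest while the other 5 libraries lay together, and the log2 fold change of 0.12 (SE 0.12) became 0.00 without that library. Ddit3, the gene of CHOP, a factor made under lasting stress, measured 30.7, 29.8 and 25.8 CPM in CB2 KO replicates 1 to 3, against 30.3, 22.1 and 12.9 CPM in WT replicates 1 to 3. WT replicate 3 was lowest and the remaining values overlapped, with a log2 fold change of 0.38 (SE 0.31) and an interval of -0.36 to 1.11. With 1 library left out the value was 0.14 to 0.69. Ddit3 also shares 68 exon bases with Mars, an abundant gene on the opposite strand (a mean of 4788 counts).

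Trib3, an ATF4 and CHOP target that feeds back on ATF4, had the smallest p of all 35 genes in the edgeR fit over the 6 libraries. At chromosome 2, 152337422 to 152344032 on the minus strand, it measured 79.5, 71.3 and 63.7 CPM in CB2 KO replicates 1 to 3, against 57.7, 47.4 and 39.6 CPM in WT replicates 1 to 3. All 3 CB2 KO libraries were above all 3 WT libraries. The log2 fold change was 0.56 (SE 0.19) with a 95% interval of 0.12 to 1.00, and the adjusted p was 0.469 by edgeR's quasi-likelihood test after Benjamini-Hochberg adjustment. Leaving out 1 library at a time gave 0.45 to 0.71, always positive, and the value without the library labelled CB2 KO replicate 1 was 0.48.

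The other feedback genes overlapped between genotypes. Ppp1r15a (GADD34), the phosphatase subunit that restarts translation, averaged 31.9 ± 17.6 CPM in CB2 KO and 25 ± 6.89 CPM in WT libraries (SD, n = 3 each). Its log2 fold change of 0.29 (SE 0.44) changed sign, to -0.17, without CB2 KO replicate 3. Chac1, which breaks down glutathione and is an ATF4 target as Trib3 is, averaged 21.9 ± 5.29 CPM in CB2 KO and 21.7 ± 5.85 CPM in WT libraries (SD, n = 3 each), a log2 fold change of 0.02 (SE 0.31).

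**Figure D5:**
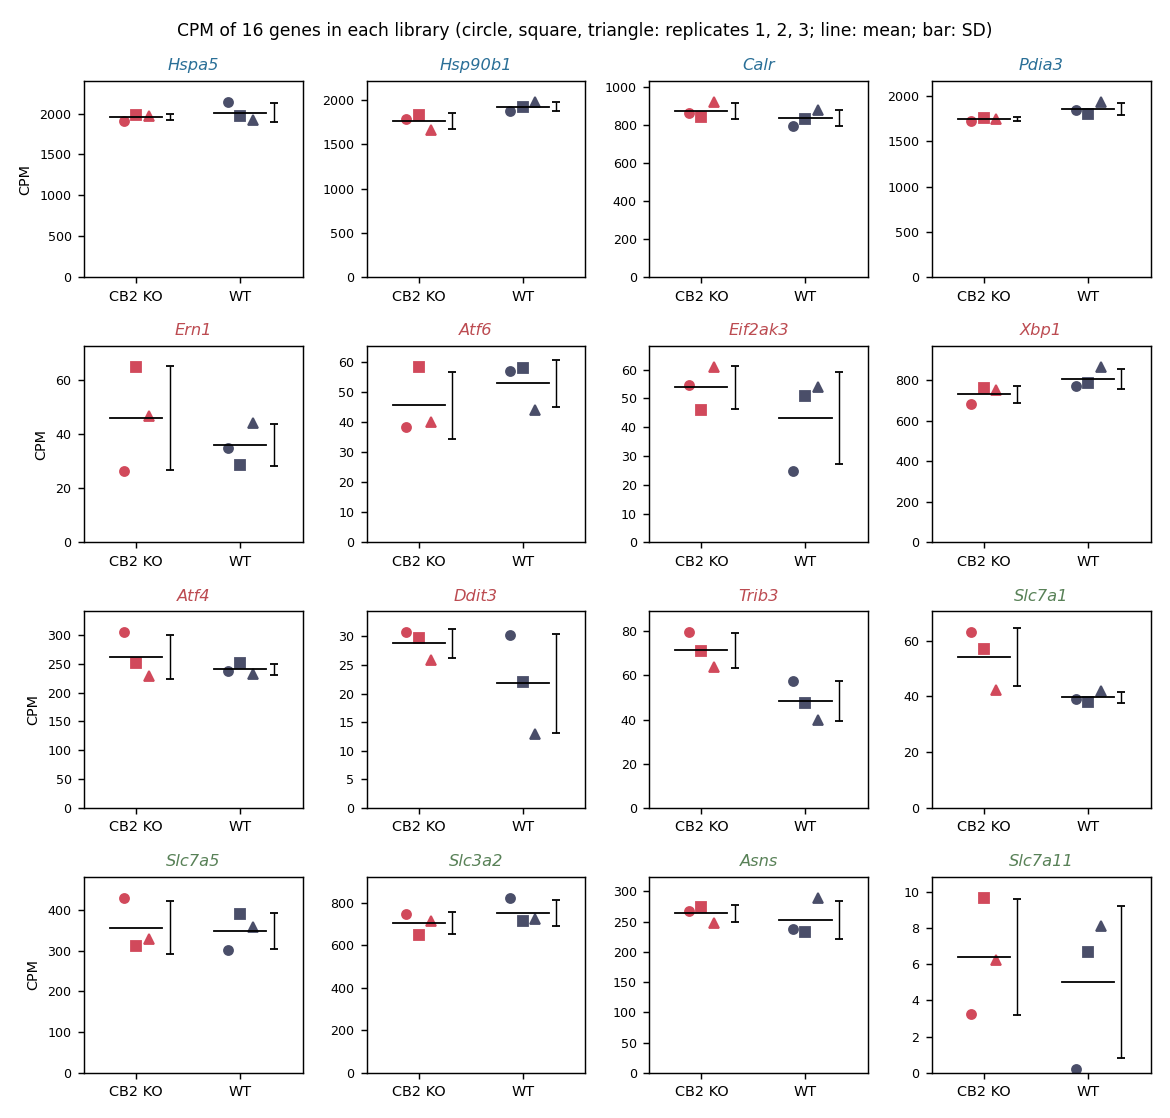
CPM of 16 of the genes in each library (circle, square and triangle for replicates 1, 2 and 3), CB2 KO left and WT right in each panel, with the mean as a line and the SD as a bar; every CPM axis starts at 0. Trib3 and Slc7a1 show CB2 KO points all above WT, Hsp90b1, Pdia3 and Xbp1 all below, and the remaining panels show overlap.

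Among the 11 ATF4 targets of amino acid supply, none passed the test, 7 had a positive and 4 a negative log2 fold change, and the median was 0.03. Their sum was 3732, 3328 and 3342 CPM in CB2 KO replicates 1 to 3, against 3407, 3477 and 3439 CPM in WT replicates 1 to 3. CB2 KO replicate 1 was the highest library and CB2 KO replicate 2 the lowest. Divided by role, the 5 transporters had a median of 0.22 and the 6 enzymes one of -0.02. The transporter median became 0.07 when the library labelled CB2 KO replicate 1 was left out, -0.04 without WT replicate 1, and 0.12 without CB2 KO replicate 2. The transporter sums overlapped, at 1882, 1509.8 and 1562 CPM in CB2 KO replicates 1 to 3, against 1665, 1600.3 and 1542 CPM in WT replicates 1 to 3.

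Slc7a1, a carrier of arginine and other cationic amino acids, measured 62.9, 56.8 and 42.4 CPM in CB2 KO replicates 1 to 3, against 38.9, 38.1 and 41.9 CPM in WT replicates 1 to 3. The 3 WT libraries were tight and all CB2 KO libraries were above them, the closest being CB2 KO replicate 3. The log2 fold change was 0.46 (SE 0.20), and the adjusted p was 0.583 by edgeR's quasi-likelihood test after Benjamini-Hochberg adjustment. Slc1a5 (ASCT2), the main glutamine importer of lymphocytes, measured 636, 486 and 471 CPM in CB2 KO replicates 1 to 3, against 500.0, 454 and 410.5 CPM in WT replicates 1 to 3. CB2 KO replicate 1 was high and the rest overlapped, so that the log2 fold change of 0.22 (SE 0.13) became 0.07 without that library.

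Slc7a5 (LAT1) and Slc3a2 (CD98 heavy chain) form together the importer of leucine and other large neutral amino acids. Slc7a5 measured 429.7, 311 and 328 CPM in CB2 KO replicates 1 to 3, against 301, 388 and 357 CPM in WT replicates 1 to 3. CB2 KO replicate 1 was again the highest library, and the log2 fold change of 0.03 (SE 0.15) became -0.13 without it. Slc3a2 measured 749.7, 647 and 714 CPM in CB2 KO replicates 1 to 3, against 825, 714 and 725 CPM in WT replicates 1 to 3. The groups overlapped, with a log2 fold change of -0.10 (SE 0.08).

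Slc7a11 (xCT), the cystine importer, was the least abundant gene of the 35. It measured 3.26, 9.68 and 6.22 CPM in CB2 KO replicates 1 to 3, against 0.239, 6.67 and 8.11 CPM in WT replicates 1 to 3. One library, WT replicate 1, was near the limit that a count of 0 allows (0.139 CPM), and leaving it out turned the log2 fold change of 0.43 (SE 0.77) to -0.19. The value also depended on the tool, at 1.44 in limma-voom and 1.21 in limma-trend on the authors' signal. An annotated transcript of it also shares 585 bases at 92.5% identity with Tuba1b, which averaged 37041 counts, so that some of its estimated counts are uncertain.

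The enzymes make asparagine, serine, glycine, one-carbon units and proline. Asns, asparagine synthetase, measured 268, 275 and 248 CPM in CB2 KO replicates 1 to 3, against 238, 233 and 289.7 CPM in WT replicates 1 to 3. WT replicate 3 was the highest library and the groups overlapped, with a log2 fold change of 0.06 (SE 0.11). Phgdh, the first enzyme of serine synthesis, measured 238, 192 and 195 CPM in CB2 KO replicates 1 to 3, against 228, 235 and 252 CPM in WT replicates 1 to 3. CB2 KO replicates 2 and 3 were below every WT library while CB2 KO replicate 1 lay among them, and the log2 fold change was -0.19 (SE 0.11). Without the library labelled CB2 KO replicate 1 it was -0.30 (SE 0.09), with an adjusted p of 0.521 by edgeR's quasi-likelihood test after Benjamini-Hochberg adjustment, the smallest of the 35 genes in that setting. Phgdh has a processed copy on chromosome 8, Gm7901, that is 98.7% identical over 1597 bases and was credited with 64.4% as many counts as Phgdh itself. With the counts of its copies added, the log2 fold change of Phgdh was -0.17 (SE 0.11).

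The next step of serine synthesis, Psat1, measured 480.4, 474 and 465 CPM in CB2 KO replicates 1 to 3, against 416, 468 and 455 CPM in WT replicates 1 to 3. WT replicates 1 and 3 were below every CB2 KO library and WT replicate 2 lay among them, with a log2 fold change of 0.09 (SE 0.07). The genes of the mitochondrial folate enzymes overlapped between genotypes. Shmt2 averaged 387 ± 7.32 CPM in CB2 KO and 385 ± 15.5 CPM in WT libraries (SD, n = 3 each). Mthfd2 averaged 276 ± 11.8 CPM in CB2 KO and 287 ± 30.8 CPM in WT libraries (SD, n = 3 each). Aldh18a1, which starts proline synthesis, averaged 208 ± 13.8 CPM in CB2 KO and 228 ± 38.5 CPM in WT libraries (SD, n = 3 each), a log2 fold change of -0.13 (SE 0.13).

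Levels of different genes can be set against each other only per length, so CPM was divided by the kilobases of merged exons and averaged over the 6 libraries. On this scale Pdia3 led the 35 genes at 575 CPM per kb, place 69 of 14061 genes, followed by Hspa5 at 469 (place 88) and Hsp90b1 at 458 (place 96). Calr reached 297 CPM per kb. The messages of the sensors stood far lower, at 8.05 CPM per kb for Eif2ak3, 5.32 for Atf6 and 5.01 for Ern1. Xbp1, at 236 CPM per kb, was more like a chaperone in level than like the sensor that splices it, and Atf4 reached 107. In the amino acid group Slc3a2 was highest at 207 CPM per kb, and Slc7a11 lowest of all at 0.409 (place 13231). Hspa5 and Hsp90b1 are neighbours in this order whose per-kb means were 463 and 437 in CB2 KO, against 476 and 478 in WT.

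A wider list of the same pathway held 110 further genes, of which 109 were in the table and 104 were tested. None passed the threshold in edgeR, where 0.107% of all genes did. An unadjusted p under 0.05 was found for 5 (4.81%), against 8.6% of all genes, and in 11 of the 104 the genotypes did not overlap (10.6%), against 14.1% of all genes. By function, 28 other folding genes had a median log2 fold change of 0.01, 20 disposal genes -0.14, 25 stress signalling genes 0.09 and 31 amino acid and tRNA-charging genes 0.04. The disposal list was the one with mostly negative values, 14 of 20.

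The 2 genes with the smallest p in each of those lists are given here. Of the folding list, Prkcsh, the beta subunit of glucosidase II, which trims glycans for the lectin cycle, measured 158, 161 and 144 CPM in CB2 KO replicates 1 to 3, against 113, 134 and 108 CPM in WT replicates 1 to 3. All CB2 KO libraries were above all WT libraries, with a log2 fold change of 0.38 (SE 0.12). Its adjusted p was 0.452 by edgeR's quasi-likelihood test after Benjamini-Hochberg adjustment and 0.0445 in DESeq2, which called 363 of the 14046 genes it gave an adjusted p (2.58%). Erp29, an ER chaperone of the disulfide isomerase family, averaged 111 ± 8.20 CPM in CB2 KO and 90.8 ± 9.65 CPM in WT libraries (SD, n = 3 each). Of the disposal list, Tmem129, an ER ubiquitin ligase, averaged 38.8 ± 10.1 CPM in CB2 KO and 64.2 ± 16.3 CPM in WT libraries (SD, n = 3 each), and Edem3, a mannosidase, 18.3 ± 5.06 CPM in CB2 KO and 29.8 ± 5.54 CPM in WT libraries. Their log2 fold changes were -0.74 (SE 0.27) and -0.70 (SE 0.29).

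Among the stress signalling genes, Atf6b, the paralog of Atf6, measured 53.6, 60.6 and 71.0 CPM in CB2 KO replicates 1 to 3, against 85.9, 87.1 and 72.1 CPM in WT replicates 1 to 3. CB2 KO libraries were all below WT, if only just, with a log2 fold change of -0.42 (SE 0.16). Eif2b3, a subunit of the exchange factor that the PERK pathway inhibits, averaged 45.3 ± 4.43 CPM in CB2 KO and 34.5 ± 1.47 CPM in WT libraries (SD, n = 3 each). Among the amino acid genes, Slc7a3, a second cationic amino acid carrier beside Slc7a1, measured 57.9, 44.7 and 35.1 CPM in CB2 KO replicates 1 to 3, against 33.6, 18.8 and 15.8 CPM in WT replicates 1 to 3. All CB2 KO libraries were above all WT libraries, and the log2 fold change was 1.00 (SE 0.33). The adjusted p of Slc7a3 was 0.469 by edgeR's quasi-likelihood test after Benjamini-Hochberg adjustment. Slc38a1, a glutamine transporter, averaged 234 ± 5.24 CPM in CB2 KO and 269.5 ± 26.7 CPM in WT libraries (SD, n = 3 each), with overlapping groups.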

How the data were processed

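The authors deposited 1 estimated count per gene and library; per the file headers, Partek made them by expectation maximization. The submitters' processing notes name CASAVA 1.8.2, STAR (version given as 3.5.3), Partek and mm10. Because reads fitting several genes are shared out, only 55.6% to 58.3% of a library's values were whole to within 0.01. The authors also deposited a normalized signal, found here to be (estimated count + 1) over a library factor chosen so that the 75th percentile is 44.6.

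Groups came from the sample titles. Rounded estimated counts entered edgeR 4.0.16 under R 4.3.3, with TMM factors, filterByExpr, glmQLFit (legacy=FALSE, robust=TRUE) and its quasi-likelihood F test, at an adjusted p (Benjamini-Hochberg) of 0.05. The procedure was also run on simulated whole counts with dispersions taken from these data. That run does not cover shared-out reads or an outlying library. Alternatives used DESeq2 1.42.0, limma 3.58.1 and other settings. CPM uses TMM-scaled library sizes. A count of 3, the limit that a count of 0 allows, is 0.139 to 0.175 CPM and covers counting error only. No 2 libraries were alike to within sampling noise. Coordinates follow GENCODE on GRCm38, the build also called mm10. Per-length levels use its merged exons. Processed copies were found by aligning transcripts and kept at 90% identity or more over 80% of the copy.

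The 35 genes and all lists were chosen with earlier results of these data known. Values per library are given for the 4 genes with the smallest p in each group and for a fixed set of sensors, factors, chaperones and targets. Of each wider list, the 2 genes with the smallest p are named.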

Additional observations from a re-analysis of the deposited data

How the results depend on the processing

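None of the 35 genes passed the threshold under any of the 15 alternatives, in which 503 of 525 fold changes had the main sign. Scaling moved the median of all genes by at most 0.03. Deviations from the group means correlated at 0.074, 0.031 and 0.02 between libraries of the same replicate number in the titles. Between libraries of different numbers the correlations ran from -0.056 to 0.032. All are small, and with 3 libraries a group they cannot settle whether the numbers pair the libraries. With the replicate block, 3 genes of the whole table passed in place of 15, and 0 of the 35. DESeq2 called 363 genes of the table and 1 of the wider pathway list (Prkcsh), and limma-trend on the authors' signal called 23. Leaving out 1 library gave 3 to 8 genes of the table, with 8 when CB2 KO replicate 1 was left out. The median of the stress group was 0.16 in limma-voom and 0.14 to 0.31 with 1 library left out, that of the chaperones -0.07 to 0.00 and that of the amino acid group -0.04 to 0.08. Signs turned in 15 genes. Shmt2 was -0.01 in limma-trend, and the other turns came from leaving out 1 library, with these ranges of the log2 fold change: Hspa5 -0.07 to 0.00, Canx -0.01 to 0.06, Pdia4 -0.07 to 0.05, Dnajb9 -0.09 to 0.29, Sdf2l1 -0.09 to 0.00, Manf -0.14 to 0.02, Edem1 -0.09 to 0.00, Sel1l -0.11 to 0.06, Ppp1r15a -0.17 to 0.65, Chac1 -0.22 to 0.27, Slc7a11 -0.19 to 0.93, Slc7a5 -0.13 to 0.12, Shmt2 -0.03 to 0.04, Mthfd2 -0.10 to 0.03 and Aldh18a1 -0.23 to 0.00. The cause of these moves was not tested. With 3 libraries a group, the 95% intervals of 11 of the 35 genes reach past 1.5-fold: Hyou1, Dnajb9, Slc7a11, Slc7a1 and all of the stress group but Xbp1 and Atf4.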
